A study of Mus musculus with 12 samples.

Results

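10 genes that serve the calcium switch of keratinocytes were followed in RNA-Seq counts of primary mouse keratinocyte cultures. They were chosen by name, as 10 of the 21947 loci in the count table, and the rule used names alone. The genes are the calcium-sensing receptor *Casr*, the calcium pumps *Atp2a2* and *Atp2c1*, the store-operated entry pair *Stim1* and *Orai1*, the cation channel *Trpv4*, the classical cadherins *Cdh1* and *Cdh3*, and the catenins *Ctnna1* and *Ctnnb1*. The 12 libraries all came from keratinocytes of newborn BALB/c mice, grown at 0.05 mM calcium and brought to 0.12 mM to start differentiation, and this higher calcium was shared by every group. Batch 1 held 2 libraries without siRNA (no siRNA), 2 with a non-targeting siRNA pool (siControl) and 2 with an siRNA pool against suprabasin (siSbsn). Batch 2 held 3 siControl and 3 siSbsn libraries, numbered 1 to 3 and 4 to 6. RNA was taken 48 h after transfection of 75 pmol of siRNA. What separates the batches is not in the labels, and the labels do not say whether replicates were separate cultures or separate litters, so the p-values measure the spread between libraries, which may be technical. Every library was at the higher calcium, so no comparison of low with high calcium is made here.

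A rise in extracellular calcium makes keratinocytes stop dividing, join by cadherins and begin to differentiate. CASR, a receptor of the cell surface, senses the calcium outside the cell, the pumps SERCA2 (*Atp2a2*) and SPCA1 (*Atp2c1*) fill the endoplasmic reticulum and the Golgi, and STIM1 senses emptied stores and opens ORAI1. E-cadherin (*Cdh1*) and P-cadherin (*Cdh3*) bind neighbouring cells only with calcium, β-catenin (*Ctnnb1*) holds the cadherin tail and also acts in Wnt signalling, and α-catenin (*Ctnna1*) links the complex to actin. Loss of a copy of the human pump genes causes the blistering diseases Darier disease (*ATP2A2*) and Hailey-Hailey disease (*ATP2C1*).

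3 promoter sequences are printed because they belong to the members at the ends of the results, *Stim1* and *Ctnnb1* with the highest estimates in siSbsn and *Casr* without a single read. Each is the stretch from 250 to 51 bases before the RefSeq transcript start on GRCm38.p6, 200 bases read 5′ to 3′ on the strand of the gene, with each CG dinucleotide in capitals. The stretches are *Stim1* chr7:102267569-102267768 (plus), *Ctnnb1* chr9:120933150-120933349 (plus) and *Casr* chr16:36562185-36562384 (minus). The reference is not the BALB/c genome.
Stim1: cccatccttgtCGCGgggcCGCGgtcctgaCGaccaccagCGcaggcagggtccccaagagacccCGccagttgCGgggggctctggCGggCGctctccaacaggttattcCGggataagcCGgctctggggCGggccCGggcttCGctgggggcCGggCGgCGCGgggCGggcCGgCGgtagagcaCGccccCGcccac
Ctnnb1: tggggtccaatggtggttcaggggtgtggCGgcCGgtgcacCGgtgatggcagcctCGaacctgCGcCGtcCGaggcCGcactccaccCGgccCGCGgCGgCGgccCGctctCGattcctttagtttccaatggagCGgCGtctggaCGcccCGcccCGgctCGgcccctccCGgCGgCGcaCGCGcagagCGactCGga
Casr: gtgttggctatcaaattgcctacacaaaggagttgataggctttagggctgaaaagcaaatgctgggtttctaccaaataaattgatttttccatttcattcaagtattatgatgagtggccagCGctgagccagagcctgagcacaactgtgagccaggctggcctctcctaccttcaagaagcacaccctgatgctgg
The *Stim1* stretch held 24 CG, more than 94.4% of the 32851 stretches of the same kind in the promoter table, and the *Ctnnb1* stretch held 28, more than 97.0%. The *Casr* stretch held 1 CG, against a median of 4 over all stretches, and 11.0% of all stretches held fewer. *Orai1* held 22 CG and *Trpv4* 15. A second start of *Ctnnb1* held 35, and the 2 starts of *Atp2c1* held 23 and 6, the latter more than 57.8% of all stretches. Stretches were kept for 6 of the 10 members, and none was kept for *Atp2a2*, *Cdh1*, *Cdh3* and *Ctnna1*. For *Ctnna1* this does not show that the promoter table lacked a stretch. These counts of letters describe the reference sequence alone.

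On the mm10 (GRCm38) assembly, *Casr* spans chr16:36493696-36562134 on the minus strand, *Atp2a2* chr5:122453513-122502225 (minus), *Atp2c1* chr9:105411362-105527319 (minus) and *Stim1* chr7:102267824-102436855 (plus). *Orai1* spans chr5:123015074-123030452 (plus), *Trpv4* chr5:114622154-114658421 (minus), *Cdh1* chr8:106603350-106670247 (plus) and *Cdh3* chr8:106510852-106556911 (plus). *Ctnna1* spans chr18:35118912-35254775 (plus) and *Ctnnb1* chr9:120933400-120960507 (plus). The cadherin genes are neighbours on chromosome 8. The *Ctnna1* locus was joined by the authors with the overlapping gene *Lrrtm2* and a cDNA, so its reads could not be split. *Atp2a2*, *Atp2c1*, *Stim1* and *Cdh1* were each joined with 1 overlapping cDNA entry.

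Levels are given as CPM (the count of a locus per 1000000 counts of the loci that passed a filter on low counts, scaled between libraries by TMM), and between genes as CPM per kb of the longest annotated transcript. Total counts ranged from 27934836 to 49553923 per library. *Sbsn*, the target of the siRNA, fell in batch 2, with a log2-fold change of -1.64 ± 0.10 (SE) and a q of 0.00056 by edgeR. In batch 1 the siSbsn libraries had 1965 and 696.5 CPM of *Sbsn* and the siControl libraries 1189 and 1356, so the library labelled siSbsn batch 1 replicate 1 showed no lower *Sbsn*, and its label was not borne out by the target. The library siControl batch 1 replicate 1 stood apart from all others, at 57.3 on the second principal component of all loci where the other 11 lay between -28.0 and 22.1. All 8 keratinocyte markers reached 1 CPM, with a summed level of 22400 to 54600 CPM and the highest sum in siControl batch 1 replicate 1. Of the markers of other cells, 8 of 9 fibroblast markers reached 1 CPM (summed level 414 to 1256 CPM) and so did 6 of 6 melanocyte markers (699 to 1036 CPM). Endothelial markers summed to 1.23 to 3.28 CPM, and immune markers to 1.14 to 6.93 CPM, with *Cd207* at 0. In such bulk samples fewer cells of a type and less RNA per cell cannot be told apart.

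*Casr* was the only member without reads. It had 0 counts in each of the 12 libraries, out of 442904491 counts in all, and 1531 loci, 6.98% of the table, were at 0 throughout. A count of 0 allows up to 3 counts per library, which is at most 0.0238 CPM per kb and covers counting error only. *Trpv4*, the next lowest member, was at least 153.5-fold higher per kb than this limit in every library. RNA of the calcium-sensing receptor was therefore not detectable at this depth in any group, and it could not be compared between groups. The protein was not measured.

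The 9 other members passed the filter on low counts, and their order was led by the adherens junction. Median levels over the 12 libraries were 373 CPM per kb for *Cdh1*, 318 for *Ctnna1* and 237 for *Ctnnb1*. By mean level, *Cdh1* lay above 99.4% of the tested loci that had a transcript length, *Ctnna1* above 99.2% and *Ctnnb1* above 99.0%. Their ranges overlapped. *Cdh1* was above *Ctnna1* in 11 of 12 libraries and *Ctnna1* above *Ctnnb1* in 10 of 12, while *Cdh1* was above *Ctnnb1* in all 12, by 1.04 to 1.65 times. A gap followed, and *Ctnnb1* was 2.39 to 4.11 times the level of *Atp2a2* in every library, with ranges that did not meet.

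*Atp2a2*, the endoplasmic reticulum pump, had a median of 87.9 CPM per kb, and the Golgi pump *Atp2c1* 11.2. *Stim1* (50.7 CPM per kb) and *Cdh3* (40.6) exchanged places, with *Stim1* higher in 10 of 12 libraries. The libraries in which it was lower were both siControl libraries of batch 1. *Orai1*, the pore of store-operated entry, followed at 14.1 CPM per kb, and *Trpv4* was lowest of the detected members at 3.79. Of the tested loci that had a transcript length, 35.1% lay below the mean level of *Trpv4*. *Orai1* was above *Atp2c1* in all 12 libraries, by 1.11 to 3.29 times, although their ranges overlapped. *Cdh3* was the steadiest member, with its highest library 1.17 times its lowest, and *Stim1* the most variable, at 2.11 times. The lowest *Stim1* library was siControl batch 1 replicate 1, at 117 CPM. In the other libraries *Stim1* ran from 155 to 248 CPM, and *Ctnnb1* ran from 772 to 1413 CPM.

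**Figure D1:**
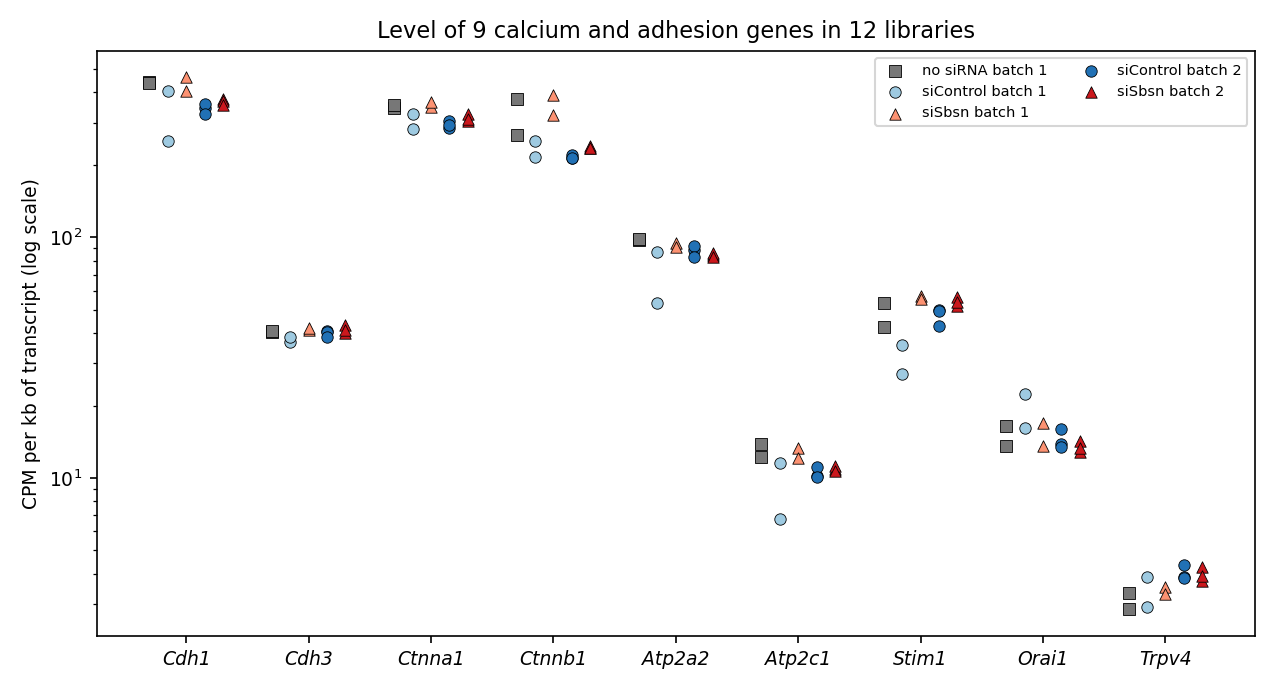
Level of the 9 detected members in each of the 12 libraries, as CPM per kb of transcript on a log axis, with 1 point per library and colour and shape giving the group. *Cdh1*, *Ctnna1* and *Ctnnb1* are at the top, *Trpv4* at the bottom at 2.85 to 4.36 CPM per kb, and *Casr* is not drawn since it was at 0 in every library.

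The comparison over both batches set the siRNA pool against suprabasin beside the non-targeting pool. *Sbsn* itself was lower without overlap in batch 2. In batch 1 the groups overlapped, with a mean of 1331 CPM in siSbsn and 1272 CPM in siControl. None of the members was called by the thresholds of the study (a q under 0.05 with a log2-fold change beyond 0.5 either way), and neither was any other locus (0% of 12857 loci tested with edgeR). With DESeq2 0.746% of the loci that received a q were called, and again no member. The study, using DESeq2 with a batch factor at these thresholds, reported more genes than this, both higher and lower. The cause of that difference was not tested. At an unadjusted p under 0.05, 2 of the 9 members were higher in siSbsn (*Stim1* and *Ctnnb1*), where 9.68% of all loci were higher, and 0 were lower, where 9.49% of all loci were lower. With the replicate number as a block 5 members were under 0.05, 4 of them higher (*Stim1*, *Ctnnb1*, *Cdh1* and *Ctnna1*) and 1 lower (*Orai1*). In that fit 4100 of the 12857 loci were under 0.05, 2223 of them higher and 1877 lower. The estimate was above 0 for 8 of the 9 members with a median of 0.16 on the log2 scale, against a median of 0.01 over all loci tested, of which 50.7% were above 0. The median of the members was 0.38 in batch 1 and 0.07 in batch 2.

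*Stim1*, the sensor of emptied calcium stores, had the largest estimate. Its level was 117 and 155 CPM in the siControl libraries of batch 1 and 248 and 243 CPM in the siSbsn libraries. In batch 2 it was 217, 215 and 187 CPM in siControl and 246, 225 and 236 CPM in siSbsn. In each batch the siSbsn libraries all lay above the siControl ones. The log2-fold change was 0.46 ± 0.13 (SE, 5 against 5 libraries), with q = 0.254 by edgeR and an unadjusted value under 0.05. It was 0.83 ± 0.25 in batch 1 (q = 0.423) and 0.20 ± 0.08 in batch 2 (q = 0.483). With the replicate number as a block, *Stim1* was called in batch 1 (0.84 ± 0.24, q = 0.0069 by edgeR), as were 1808 loci in all, where none was called without it. Same-numbered libraries of batch 1 deviated together, with correlations of 0.379 to 0.805 between groups, but the labels do not say what a number shares. The interaction of batch and treatment was -0.64 ± 0.19 for *Stim1*, with q = 0.265 by edgeR, so the difference between the batches did not pass the threshold either. Batch 1 includes the library labelled siSbsn in which *Sbsn* was not lower. Without siControl batch 1 replicate 1 the change over both batches was 0.34 ± 0.09 (q = 0.224).

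*Orai1*, the channel that STIM1 opens, had an estimate below 0. The siControl libraries of batch 1 held 41.7 and 30.3 CPM of it and the siSbsn libraries 31.8 and 25.6 CPM. In batch 2 siControl held 26.0, 25.2 and 30.1 CPM and siSbsn 26.8, 24.1 and 25.1 CPM. The groups overlapped in both batches. Its log2-fold change over both batches was -0.18 ± 0.11 (q = 0.334), and 0.00 once a smooth trend of the change with transcript length was removed. It was -0.08 ± 0.08 without siControl batch 1 replicate 1. The ratio of *Stim1* to *Orai1* per kb ran from 1.21 in siControl batch 1 replicate 1 to 4.09 in siSbsn batch 1 replicate 2.

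*Ctnnb1*, which encodes β-catenin, had the other estimate with p under 0.05. The siControl libraries of batch 1 held 785 and 907 CPM and the siSbsn libraries 1413 and 1166 CPM. In batch 2 siControl held 778, 796 and 772 CPM and siSbsn 855, 865 and 855 CPM, again with no overlap in either batch. The log2-fold change was 0.33 ± 0.11 over both batches (q = 0.254 by edgeR), 0.59 ± 0.27 in batch 1 (q = 0.424) and 0.14 ± 0.06 in batch 2 (q = 0.483). The interaction was -0.46 ± 0.16 (q = 0.283). The library with the most *Ctnnb1*, siSbsn batch 1 replicate 1, also had the highest sum of the 9 fibroblast markers, 1256 CPM. The no siRNA library of replicate 1 was second in both, with 1367 CPM of *Ctnnb1* and 1017 CPM of fibroblast markers, while the marker sums of the other 10 libraries lay between 414 and 545 CPM. For the differentiating keratinocyte markers, too, siSbsn and no siRNA batch 1 replicate 1 had the highest sums, 1206 and 1020 CPM. The next was siControl batch 1 replicate 1, at 825.6 CPM. The part of fibroblasts or of keratinocyte state in the *Ctnnb1* level was not tested. Without both replicate 1 libraries of siControl and siSbsn in batch 1, an alternative chosen after seeing the data, its change was 0.20 ± 0.06 (q = 0.132).

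*Ctnna1*, whose product ties the cadherin complex to actin, was the third member without overlap in either batch. It was at 1055 and 1216 CPM in siControl and 1302 and 1363 CPM in siSbsn of batch 1. In batch 2 siControl held 1064, 1135 and 1089 CPM and siSbsn 1140, 1216 and 1160 CPM. The estimate was small, 0.16 ± 0.07 (q = 0.264 by edgeR), and it was -0.02 ± 0.07 with the length trend removed. The length used for that trend was the longest transcript of the joined locus, which includes *Lrrtm2*. It need not be the length of *Ctnna1*. Over all loci tested, 5.13% were higher in siSbsn without overlap in both batches and 4.22% lower, and of the members 3 of 9 were higher and 0 lower. With scaling by total counts in place of TMM, *Ctnna1* was no longer among these members. With the length trend removed 2 members showed no overlap, both higher in siSbsn, where 5.31% of all loci were higher and 3.29% lower. *Ctnna1* left this count under the length of its joined locus.

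Neither cadherin was called between siSbsn and siControl. *Cdh1* was at 1117 and 1791 CPM in siControl and 1789 and 2048 CPM in siSbsn of batch 1, where the groups overlapped narrowly. In batch 2 it was at 1533, 1587 and 1442 CPM in siControl and 1662, 1641 and 1576 CPM in siSbsn, also with overlap. Its change was 0.22 ± 0.13 over both batches (q = 0.298 by edgeR), 0.38 ± 0.31 in batch 1 and 0.10 ± 0.07 in batch 2, and 0.10 ± 0.07 over both without siControl batch 1 replicate 1. *Cdh3* was at 161 and 169 CPM in siControl and 180 and 184 CPM in siSbsn of batch 1, and at 168 to 179 CPM in siControl and 175 to 189 CPM in siSbsn of batch 2. Its change was 0.09 ± 0.06 (q = 0.362), and its groups separated in batch 1 and overlapped in batch 2.

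The pumps and *Trpv4* were not called in either batch or over both. *Atp2a2* was at 302 and 493 CPM in siControl and 538 and 517 CPM in siSbsn of batch 1, and at 504, 521 and 469 CPM against 478, 488 and 471 CPM in batch 2. Its change was 0.39 ± 0.29 in batch 1 and -0.05 ± 0.07 in batch 2, and over both batches 0.14 ± 0.14 (q = 0.515), which was -0.0035 without siControl batch 1 replicate 1. *Atp2c1* was at 38.2 and 65.3 CPM in siControl and 75.3 and 68.5 CPM in siSbsn of batch 1, and at 57.2 to 62.9 CPM against 60.4 to 63.4 CPM in batch 2, with a change of 0.23 ± 0.14 (q = 0.314). It was 0.09 without siControl batch 1 replicate 1. *Trpv4*, a cation channel that opens on warmth and stretch, was at 12.5 and 9.38 CPM in siControl and 11.4 and 10.6 CPM in siSbsn of batch 1. In batch 2 it was at 12.4 to 14.1 CPM in siControl and 12.1 to 13.8 CPM in siSbsn, and its change was 0.00 ± 0.10 (q = 0.997).

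**Figure D2:**
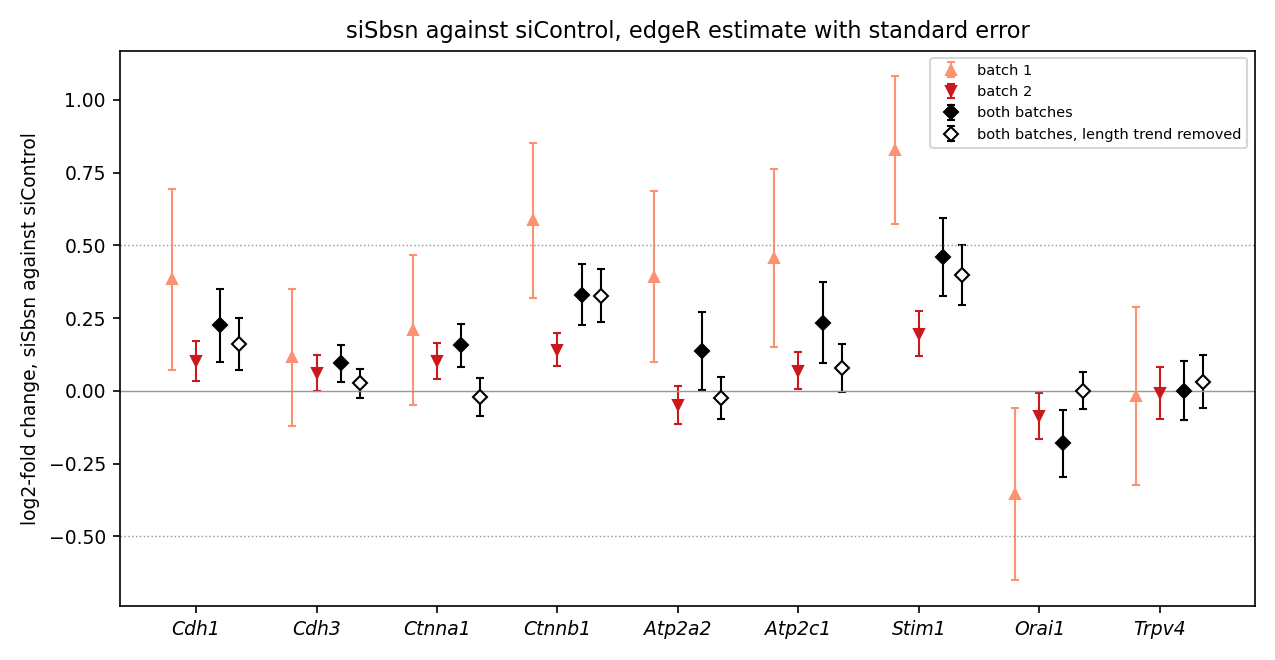
Log2-fold change of siSbsn against siControl by edgeR for 9 members, with the standard error as bars: triangles for each batch, filled diamonds for both batches (5 against 5 libraries) and open diamonds with the length trend removed. Dotted lines mark the threshold of 0.5. The batch 1 estimates reach 0.83 for *Stim1* and have the longer bars, the batch 2 estimates lie between -0.09 and 0.20, and none was called.

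The member changes moved with transcript length and with 1 library. With the length trend removed the median over the 9 members was 0.03 in place of 0.16, and 7 were above 0, while *Stim1* (0.40 ± 0.10, q = 0.233) and *Ctnnb1* (0.33 ± 0.09, q = 0.233) kept most of their change. The *Ctnna1* value in this setting used the length of its joined locus. The library siControl batch 1 replicate 1 was the lowest of all 12 for *Atp2a2*, *Atp2c1*, *Stim1*, *Cdh1*, *Cdh3* and *Ctnna1*, and the highest for *Orai1*. It held 61.3% of the *Atp2a2*, 58.5% of the *Atp2c1* and 62.4% of the *Cdh1* CPM of its replicate, but 138% of the *Orai1*. Leaving it out lowered the median change of the members to 0.09. The part of length and of this library in the differences between siSbsn and siControl was not tested.

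**Figure D3:**
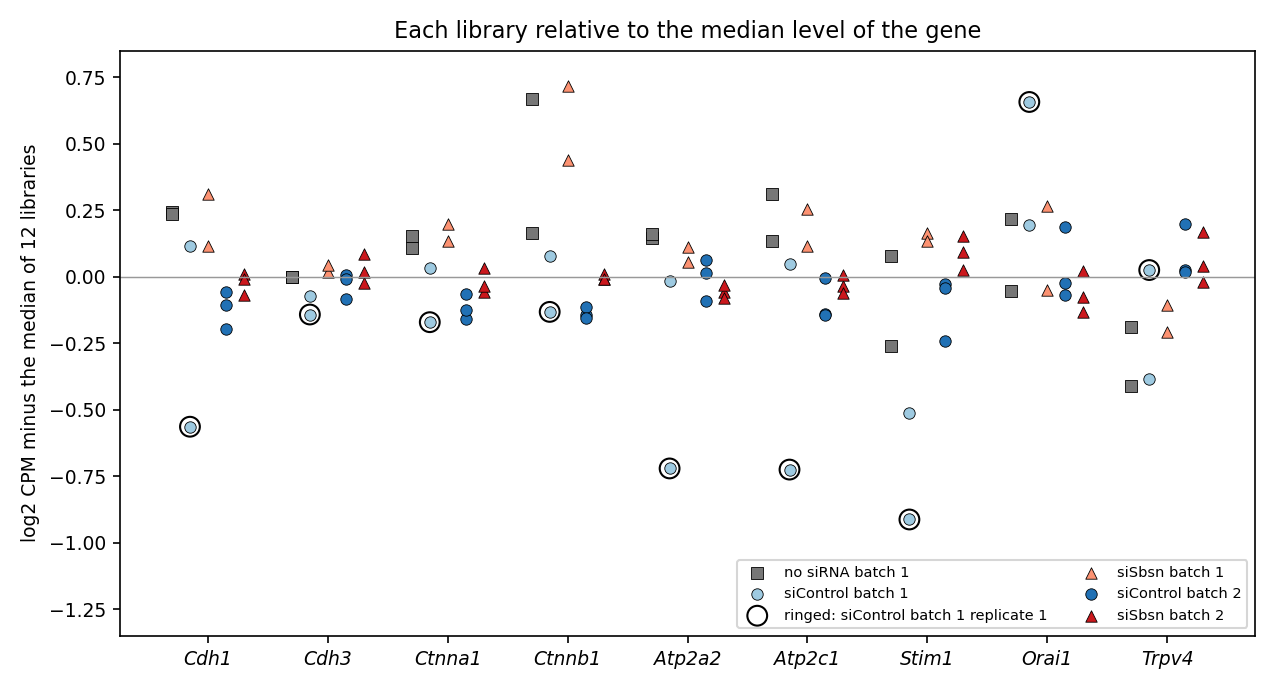
Log2 CPM of each library minus the median of the 12 libraries, for 9 members, with 1 point per library and siControl batch 1 replicate 1 ringed. The ringed library is the lowest for 6 members and the highest for *Orai1*, and for each gene the point farthest from the median belongs to batch 1.

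In batch 1 the cultures without siRNA gave a second reference. For 7 of the 9 members both no siRNA libraries were above both siControl libraries, where 27.5% of all loci were, and for 6 of the 9 both siSbsn libraries were, where 25.2% of all loci were. In batch 2 the siSbsn libraries were all above the siControl libraries for 3 of 9 members, where 9.39% of all loci were. The comparisons within batch 1 share the same 2 siControl libraries. *Cdh1* was at 1956 and 1947 CPM without siRNA and *Stim1* at 233 and 184 CPM. *Atp2a2* was at 552 and 557.5 CPM without siRNA, above its siSbsn libraries also. Estimates for siControl against no siRNA were -0.59 ± 0.28 for *Stim1*, -0.49 ± 0.31 for *Atp2c1*, -0.46 ± 0.30 for *Atp2a2*, -0.44 ± 0.30 for *Ctnnb1* and -0.40 ± 0.32 for *Cdh1*, and 0.39 ± 0.30 for *Orai1*. Without siControl batch 1 replicate 1 they were -0.42 for *Stim1*, -0.17 for *Atp2c1*, -0.16 for *Atp2a2*, -0.36 for *Ctnnb1*, -0.12 for *Cdh1* and 0.11 for *Orai1*. The smallest q among the members was 0.401 by edgeR, and 0% of the 12959 loci tested were called. At an unadjusted p under 0.05 there were 0 members and 1556 loci, and DESeq2 called 17 loci and no member. With the replicate number as a block 1135 loci were called and no member. Set against no siRNA, the mean of the siSbsn libraries of batch 1 differed by -0.07 (*Atp2a2*) to 0.23 (*Stim1*) on the log2 scale, values given without a test.

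The batches differed widely over all loci, and the members little. Of all loci, 16.4% were called higher in batch 2 and 21.3% lower, and 0 of the 9 members were called. The siControl and siSbsn libraries of batch 1 and batch 2 did not overlap for 36.2% of all loci, and for none of the members. The largest member changes were -0.36 ± 0.11 for *Ctnnb1* (q = 0.0159 by edgeR) and -0.30 ± 0.12 for *Orai1* (q = 0.0467), which passed the q but not the fold threshold. Their q depended on the setting. *Orai1* was at -0.17 without siControl batch 1 replicate 1 (q = 0.115) and at -0.04 with the length trend removed (q = 0.589), and *Ctnnb1* was at -0.24 without siSbsn batch 1 replicate 1 (q = 0.0665). With the length trend removed *Ctnna1* was at -0.35 (q = 0.00115), *Ctnnb1* at -0.35 (q = 0.0082), *Trpv4* at 0.29 (q = 0.0199) and *Atp2c1* at -0.23 (q = 0.0396), each by edgeR and each under the fold threshold. The *Ctnna1* value used the length of its joined locus. With the trend kept, *Ctnna1* ran from -0.17 to -0.08 over fits that left out 1 library. *Cdh3* differed by 0.03 ± 0.07 and *Atp2c1* by -0.02 ± 0.14. No locus passed for the interaction of batch and treatment (0% of 12857, with 1945 at an unadjusted p under 0.05 and 215 called by DESeq2), and no member did by either tool.

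Of a wider list of 62 calcium genes (further pumps, exchangers, channels, phospholipases and calmodulins), 50 loci were tested and 0 were called between siSbsn and siControl by edgeR. At an unadjusted p under 0.05, 9 of the 50 were higher in siSbsn and 0 lower, against 9.68% and 9.49% of all loci. The median change was 0.12, with 0.20 in batch 1, 0.03 in batch 2, and 0.08 over both with the length trend removed. The 3 with the smallest p were *Trpv6*, *Itpr3* and *Plcg1*. *Trpv6*, an epithelial calcium entry channel, changed by 0.74 ± 0.20 (q = 0.254 by edgeR) at only 1.77 to 6.50 CPM, *Itpr3*, a calcium release channel, by 0.50 ± 0.14, and *Plcg1*, a phospholipase, by 0.39 ± 0.12. With the length trend removed *Trpv6* was at 0.80, *Itpr3* at 0.15 and *Plcg1* at 0.26. DESeq2 called 2 genes of this list, *Trpv6* (0.74, q = 0.0343) and the plasma membrane pump *Atp2b4* (1.03, q = 0.0472), the latter named after its values were seen. Of all loci that received a q, DESeq2 called 0.746%. *Atp2b4* changed by 2.07 in batch 1 and by 0.33 in batch 2 by edgeR, and over both batches by 0.62 with the length trend removed.

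Between the batches 19 genes of the calcium list were called, 5 of the 50 higher in batch 2 and 14 lower, where 16.4% of all loci were higher and 21.3% lower. *Atp2c2*, the second pump of the secretory pathway, fell most, from a mean of 105 ± 14.4 CPM (SD, n = 2) to 20.9 ± 2.89 CPM (n = 3) in siControl and from 196 ± 30.6 to 19.9 ± 1.16 CPM in siSbsn, a log2-fold change of -2.84 ± 0.18 (q = 2.51e-06). Its relative *Atp2c1*, a member, changed by -0.02 ± 0.14 in the same comparison. *Slc8b1*, a mitochondrial exchanger, changed by -1.03 ± 0.11, *Calm3*, a calmodulin gene, by -1.02 ± 0.11 and *Plcd1*, a phospholipase, by -1.20 ± 0.14. *Calr*, which encodes the calcium-binding chaperone calreticulin, changed by -0.82 ± 0.11 and *Plcg2* by -0.60 ± 0.09. The summed differentiating keratinocyte markers were also lower in batch 2, at 306 to 352 CPM against 574 to 1206 CPM in batch 1. The summed melanocyte markers were higher in batch 2, at 983 to 1036 CPM against 699 to 869 CPM. The part of either cell state or cell type in these differences was not tested.

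Of a wider list of 44 adherens junction genes, 40 loci were tested and 0 were called between siSbsn and siControl. At an unadjusted p under 0.05, 11 of the 40 were higher in siSbsn and 2 lower, against 9.68% and 9.49% of all loci. The median change was 0.20, with 0.32 in batch 1, 0.04 in batch 2, and 0.09 over both with the length trend removed. *Pvrl2*, which encodes the adhesion molecule nectin-2, changed by -0.40 ± 0.11 (q = 0.254 by edgeR), the receptor phosphatase gene *Ptprf* by 0.50 ± 0.16 and *Pik3r1*, a subunit of PI3-kinase, by 0.58 ± 0.19. With the length trend removed *Ptprf* came to 0.22 and *Pik3r1* to 0.34. *Pvrl2* stayed at -0.40 because no length was matched to that name, so its trend was not removed. Libraries did not overlap in both batches for 5 of the 40 loci higher in siSbsn and for 5 lower, against 5.13% and 4.22% of all loci. Between the batches 5 of the 40 were called higher in batch 2 and 10 lower, against 16.4% and 21.3% of all loci. The actin regulator *Shroom3* (-0.89 ± 0.07), the nectin gene *Pvrl4* (-0.98 ± 0.09), the locus that joins *Evl* with *Degs2* (-0.94 ± 0.11) and the junction gene *Plekha7* (-0.97 ± 0.11) were lower in batch 2. The LIM protein gene *Ajuba* (0.80 ± 0.09) and *Cbll1*, a ubiquitin ligase of E-cadherin (0.93 ± 0.13), were higher.

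**Figure D4:**
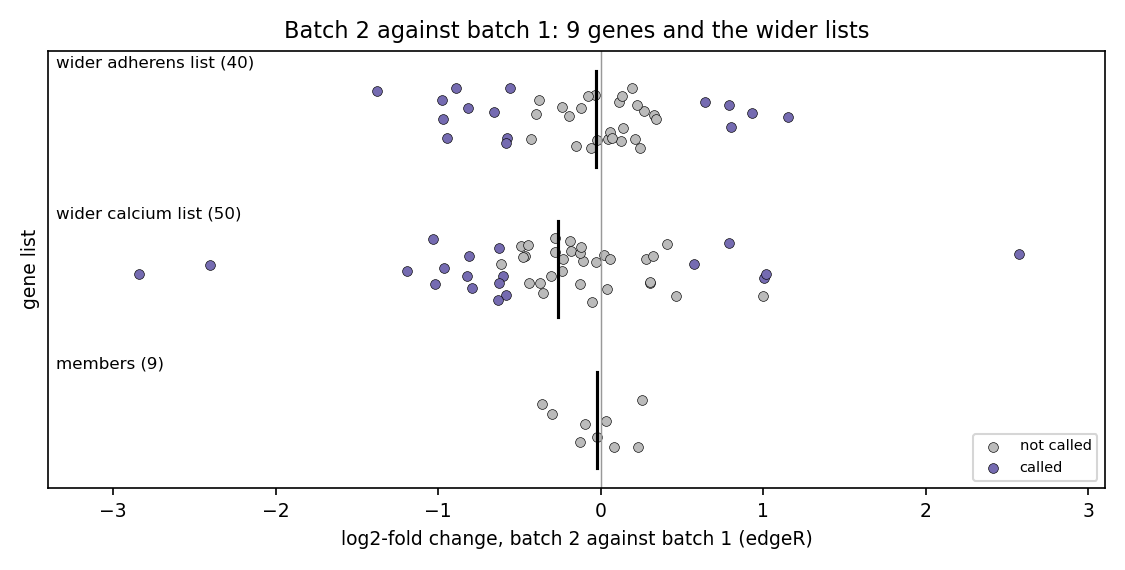
Log2-fold change of batch 2 against batch 1 by edgeR, with 1 point per gene, for the 9 members (bottom), 50 genes of the wider calcium list (middle) and 40 of the wider adherens junction list (top). Purple points were called, black bars are medians, and the vertical place within a row carries no value. The members lie between -0.36 and 0.26 with none called, and *Atp2c2* is the leftmost point at -2.84.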

How the data were processed

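In the deposited table the authors give counts of reads that STAR placed once on mm10, over genes of UCSC KnownGene. The values are whole-number counts with no normalization. Overlapping genes were joined into 1 locus, and the use of strand in counting was not given in the sources used here, so reads of overlapping or antisense genes cannot be told apart. Loci were matched by gene name, split on "+", and names joined by a comma were left out. Starts are printed after adding 1, which matched GENCODE M21 at 8212 starts against 799 as given. Lengths are those of the longest GENCODE transcript. For the length trend and for ranks over loci, a joined locus took the longest transcript of any of its genes. Of the 21947 loci, 17975 had a length, and the length trend was not removed from the others. Groups came from the sample labels.

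edgeR 4.0.16 under R 4.3.3 gave the main test (quasi-likelihood F test, TMM scaling, filterByExpr), with batch and treatment as terms, over all loci tested with Benjamini-Hochberg adjustment. Standard errors are the size of the log2-fold change over the square root of F. Calls need a q under 0.05 with a log2-fold change beyond 0.5 either way, and for the interaction a q under 0.05. DESeq2 1.42.0 (the tool of the Methods), limma-voom 3.58.1, other scaling, no filter, a lowess trend (span 0.3) on transcript length removed, left-out libraries and blocks were alternatives. The length trend was taken from the log2 CPM of each library and entered the fits as an offset on the counts. For the overlap of libraries it was removed from log2 of CPM plus 0.5. The tests were tried on simulated data. CPM divides a count by the summed counts of loci that passed the filter times the TMM factor. Totals of 27934836 to 49553923 counts per library set the precision.

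Genes named are the members, *Sbsn*, and of each wider list the called loci (at most 6 by smallest p), or with no call the 3 of smallest p, and the 3 loci most like *Cdh1*. The members and lists were chosen with earlier results of these data known. The Methods describe triplicates and do not mention the libraries without siRNA. Replicates of 1 group differed by more than sampling noise in every pair, so none was counted as a duplicate.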

Additional observations from a re-analysis of the deposited data

Results flagged for a closer look

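Of 18 sets of 5 libraries (the siControl and the siSbsn libraries of both batches, for each of 9 members), 3 held a library far from the others, by a gap to its neighbour over 0.71 of the whole range. Chance gives about 1 in 20 such sets, and the sets join both batches, so a difference between batches can add to a gap. In siControl, *Atp2a2* was lowest in batch 1 replicate 1, at 302 CPM against 469 to 521 CPM in the others, a gap of 0.804 of the range. *Atp2c1* was lowest in the same library, at 38.2 CPM against 57.2 to 65.3 CPM (0.752 of the range). *Ctnnb1* was highest in siControl batch 1 replicate 2, at 907 CPM against 772 to 796 CPM (0.810 of the range).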

How the results depend on the processing

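Of 702 values of single members under an alternative, 645 kept their sign and their side of the threshold, 11 passed it in the same direction, and 46 had the other sign, none of them past the threshold. The causes were not tested.

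Counts of calls moved as follows. For siSbsn against siControl over both batches the loci called were 94 with DESeq2 and 1 without both replicate 1 libraries of batch 1 (0 with edgeR), and members at p under 0.05 were 4 without siControl batch 1 replicate 2 (range over left-out libraries 2 to 4). In batch 1, where 0 loci were called, DESeq2 called 156, the fit without a filter 478, and fits that left out 1 library 5 to 3399, with 0 to 3 members. The 3399 loci and 3 members (*Atp2a2*, *Atp2c1* and *Stim1*) came without siControl batch 1 replicate 2, where siControl batch 1 replicate 1 alone stood for its arm and was assumed to vary like the other groups. The fits without siSbsn batch 1 replicate 2, siSbsn batch 1 replicate 1 and siControl batch 1 replicate 1 gave 111, 10 and 5 loci. In batch 2 the calls were 1 (*Sbsn*), 10 with DESeq2, 9 without a filter, 5 with the length trend removed, and 1 to 10 with a library left out (10 without siControl batch 2 replicate 3). For the interaction they were 215 with DESeq2, 17 without a filter, 19 without both replicate 1 libraries, and 0 to 4905 with a library left out, with 0 to 5 members (4905 loci and *Atp2a2*, *Atp2c1*, *Stim1*, *Cdh1* and *Ctnnb1* without siControl batch 1 replicate 2, and 435 loci without siSbsn batch 1 replicate 2). For siControl against no siRNA they were 17 with DESeq2, 377 without a filter, and 0 to 3223 with a library left out, with 0 to 2 members (3223 loci and *Atp2a2* and *Atp2c1* without siControl batch 1 replicate 2, and 41 and 6 loci without no siRNA replicates 2 and 1). The batches differed at 4852 loci and, in siControl alone, at 1940.

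With the replicate number as a block, members at p under 0.05 over both batches were 5, beside 4100 of 12857 loci. In batch 1 the block gave 1808 loci and 1 member (*Stim1*, q = 0.0069) for siSbsn against siControl. It gave 1135 loci for siControl against no siRNA. The labels do not say what a number shares. Deviations of same-numbered libraries in batch 1 correlated at 0.379, 0.805 and 0.457 over loci between pairs of groups, with 2 numbers in each group, and the main fit has no block.

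Signs of small estimates turned. With the length trend removed, siSbsn against siControl was -0.0234 for *Atp2a2*, 7.7e-05 for *Orai1* and -0.0209 for *Ctnna1* over both batches, 0.0386 for *Trpv4*, -0.0184 for *Cdh3* and -0.118 for *Ctnna1* in batch 1, and 0.0132 for *Trpv4* in batch 2. The interaction was then 0.0483 for *Cdh3* and 0.144 for *Ctnna1*, siControl against no siRNA 0.0654 for *Cdh3* and 0.196 for *Ctnna1*, and batch 2 against batch 1 -0.126 for *Atp2a2* and -0.0515 for *Cdh3*. These *Ctnna1* values used the length of its joined locus. For *Trpv4*, siSbsn against siControl was -0.000405 without a batch term and -0.00556 with 12 libraries fitted, and in batch 1 0.00115 with DESeq2 and 0.000975 with RLE size factors. Without both replicate 1 libraries *Atp2a2* was -0.0166 in siSbsn against siControl and -0.0531 between batches, and *Atp2c1* 0.000995 for the interaction. In siControl alone the batches differed by 0.182 for *Atp2c1* and 0.0551 for *Cdh1*. With 1 library left out, siSbsn against siControl ran from -0.00353 to 0.21 for *Atp2a2* and from -0.0509 to 0.0612 for *Trpv4* over both batches, and for *Trpv4* from -0.242 to 0.219 in batch 1 and from -0.0668 to 0.0643 in batch 2. The interaction ran from -0.000506 to 0.42 for *Orai1*, from -0.23 to 0.14 for *Trpv4* and from -0.708 to 0.0105 for *Cdh1*. For *Trpv4* siControl against no siRNA ran from -0.0819 to 0.377. Batch 2 against batch 1 ran from -0.0781 to 0.182 for *Atp2a2*, from -0.187 to 0.0979 for *Atp2c1* and from -0.235 to 0.0241 for *Cdh1*.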

Other observations

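Levels of related members were set side by side in each library, as ratios of CPM per kb. *Cdh1* was 6.85 times the level of *Cdh3* in siControl batch 1 replicate 1 and 8.48 to 11.0 times in the other 11 libraries. *Ctnna1* was 0.909 and 0.895 times the level of *Ctnnb1* in the no siRNA and siSbsn libraries of batch 1 replicate 1, and 1.14 to 1.39 times in the other 10. The pumps kept a narrower ratio, with *Atp2a2* 7.01 to 8.75 times *Atp2c1* over all 12.

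The loci whose profile over the 12 libraries was most like that of *Cdh1* were *Npepps*, the locus that joins *Calu* with *Opn1sw*, and *Ptprk*. Their root mean square difference from *Cdh1* in log2 CPM, after the mean of each was removed, was 0.05, 0.06 and 0.07, against a median of 0.38 over all loci. Of the members *Atp2c1* was nearest (0.09, rank 39), followed by *Atp2a2* (0.11, rank 118) and *Ctnna1* (0.13, rank 268), with *Orai1* the least like it (0.38, rank 6649). The libraries share depth, batch and the low library siControl batch 1 replicate 1, so these likenesses are a description. *Casr*, at 0 throughout, has no profile.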
